A study of Mus musculus with 12 samples.

Results

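S100 and galectin genes, 10 in all, were followed in M1-activated bone marrow-derived macrophages (BM-Mɸs): S100a4, S100a6, S100a8, S100a9, S100a10, S100a11, Lgals1, Lgals3, Lgals3bp and Lgals8. They were chosen by name and are 10 of the 22243 genes in the deposited table, which lists 17 transcripts for them. The level of a gene is the sum of its transcripts in TPM, a unit that corrects for transcript length and sets every library to the same total. RNA was sequenced from 6 ErbB4myeKO mice, which carry floxed ErbB4 and the myeloid LysMCre, and from 6 ErbB4FF mice, which carry the floxed gene without Cre. All were on a C57Bl/6 background, and 1 mouse of each genotype came from each of 6 litters. Marrow was grown in conditioned medium with M-CSF, and every culture was exposed to IFNγ (16 h at 100 U/ml) and, after it, LPS (6 h at 100 ng/ml), so no unstimulated cells enter these comparisons. Cre under the lysozyme M promoter acts in macrophages, monocytes and neutrophils, and the floxed controls carry no Cre.

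S100 proteins are small EF-hand proteins that bind calcium and then dock onto partners such as annexins, myosin or cell-surface receptors. S100a8 and S100a9 together form calprotectin, an abundant cargo of neutrophils and inflammatory monocytes that sequesters zinc and manganese and signals through Tlr4. Galectins are lectins that bind β-galactosides on glycoproteins, and Lgals3, first known as Mac-2, is a standard macrophage marker.

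The 6 S100 genes lie on chromosome 3 of GRCm38, with S100a4 at chr3:90603771-90606045, S100a6 at chr3:90612882-90624181 and S100a8 at chr3:90668978-90670035 on the plus strand and S100a9 at chr3:90692632-90695721 on the minus strand. S100a11, at chr3:93520488-93526287, and S100a10, at chr3:93555080-93564643, form a more distal pair on the plus strand. The galectin genes are scattered, with Lgals1 at chr15:78926725-78930465, Lgals3 at chr14:47367751-47386160, Lgals3bp at chr11:118392751-118402092 and Lgals8 at chr13:12439415-12464944. 

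Sequences are shown for the 3 S100 genes with TATAAA at an annotated start, as a description to which no level below is tied, and for the S100a9 transcripts whose TPM are compared below. TATAAA, in capitals, stood 31 bases before the RefSeq start of S100a4 and 30 bases before that of S100a8 in 30-base stretches of the plus strand of GRCm38.p6, at chr3:90603727-90603756 and chr3:90669029-90669058, and the longer of the annotated S100a9 transcripts begins with the same letters on the minus strand, at chr3:90695692-90695721.
S100a4: ggcctggcagggTATAAAtaggtcagattg
S100a8: caagctttcctcTATAAAagcagctgacac
S100a9, ENSMUST00000117167: TATAAAtactgggcttacactgctcttacc

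Both S100a9 transcripts in the table encode the same reading frame and differ at the 5′ end by 10 bases and, at the junction of exon 1 with exon 2, by 3 bases. The stretches run from the last bases of exon 1 to the start codon, the final atg, and the capitals mark the 3 bases that ENSMUST00000069960 alone contains.
ENSMUST00000069960: tttagccttgAAGagcaagaagatg
ENSMUST00000117167: tttagccttgagcaagaagatg

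Promoter windows of 250 bases before the RefSeq start were found for 8 of the 10 genes, all but Lgals1 and S100a10, and 7 motifs were searched on both strands. The windows of Lgals3 (chr14:47373610-47373859) and Lgals8 (chr13:12461739-12461988) lie wholly inside the gene positions given above. For these genes the RefSeq start is thus not the outermost annotated start. TATAAA was in the windows of S100a4 and S100a8 and in 12.4% of all 32851 windows. CCAAT was in those of Lgals3, Lgals8 and S100a6 (33.9% of all windows), the C/EBP-like TTGCNNAA in that of S100a9 (9.56%) and the AP-1-like TGANTCA in that of S100a11 (6.75%). A κB-like motif (1.41%), the GAS-like TTCNNNGAA (7.02%) and an ISRE-like motif (2.98%) were in none of the 8 windows. None of these motifs contains another, although neighbouring matches could overlap.

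Several features of the libraries touch the values that follow. Erbb4 was low in both genotypes, at 0.583 ± 0.242 TPM (SD, n = 6) in ErbB4myeKO and 0.450 ± 0.132 TPM (n = 6) in ErbB4FF libraries (exact permutation p = 0.25), so the RNA did not check the labels. Lyz2, whose locus drives the Cre, was at 5305 ± 1985 and 8277 ± 3445 TPM (exact permutation p = 0.219, higher in 1 litter and lower in 5). The 9 macrophage markers were all detected, and 6 of 6 lymphocyte, 6 of 6 erythroid and 4 of 6 dendritic markers were below 1 TPM in every library. The dendritic Xcr1 was at 15.6 ± 8.74 TPM in ErbB4myeKO and 11.1 ± 7.56 TPM in ErbB4FF, and Clec9a at 1.65 ± 1.49 and 1.70 ± 1.61 TPM. Of the macrophage markers, Fcgr1 was lower in ErbB4myeKO in 6 of 6 litters (log2 ratio -0.86, adjusted p = 0.603 by limma). Mertk was higher in 6 of 6 litters (0.14), and 4.82% of all genes kept one sign. Litter 5 stood apart by transcript length. The median gene with a transcript under 1000 bases (780 genes other than the 10) was 0.88 higher on the log2 scale in litter 5 than in the median of the other litters, and the median gene over 4000 bases (2329 genes) was 0.57 lower on that scale. In litter 6 the same medians were 0.34 higher and 0.14 lower. The Y-linked Ddx3y and Eif2s3y were at 0 TPM in both libraries of litters 5 and 6 and above 9 TPM in the 8 others, so sex, batch and litter cannot be told apart, while littermates matched. 

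Loss of ErbB4 was compared first, within litters, by limma on log2(TPM + 0.5). None of the 10 genes changed with genotype at an adjusted p under 0.05, and neither did any of the 8780 genes tested (0%). At an unadjusted p under 0.05, 1 of the 10 genes differed, against 8.21% of all genes (721). Of the 10, 4 had a ratio above 0 and 6 below, with a median log2 ratio of -0.10 against -0.00068 over all genes tested. No member kept one sign in all 6 litters (4.82% of genes did), and the ranges of the genotypes overlapped for all 10 (0.0456% of genes did not overlap).

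**Figure D1:**
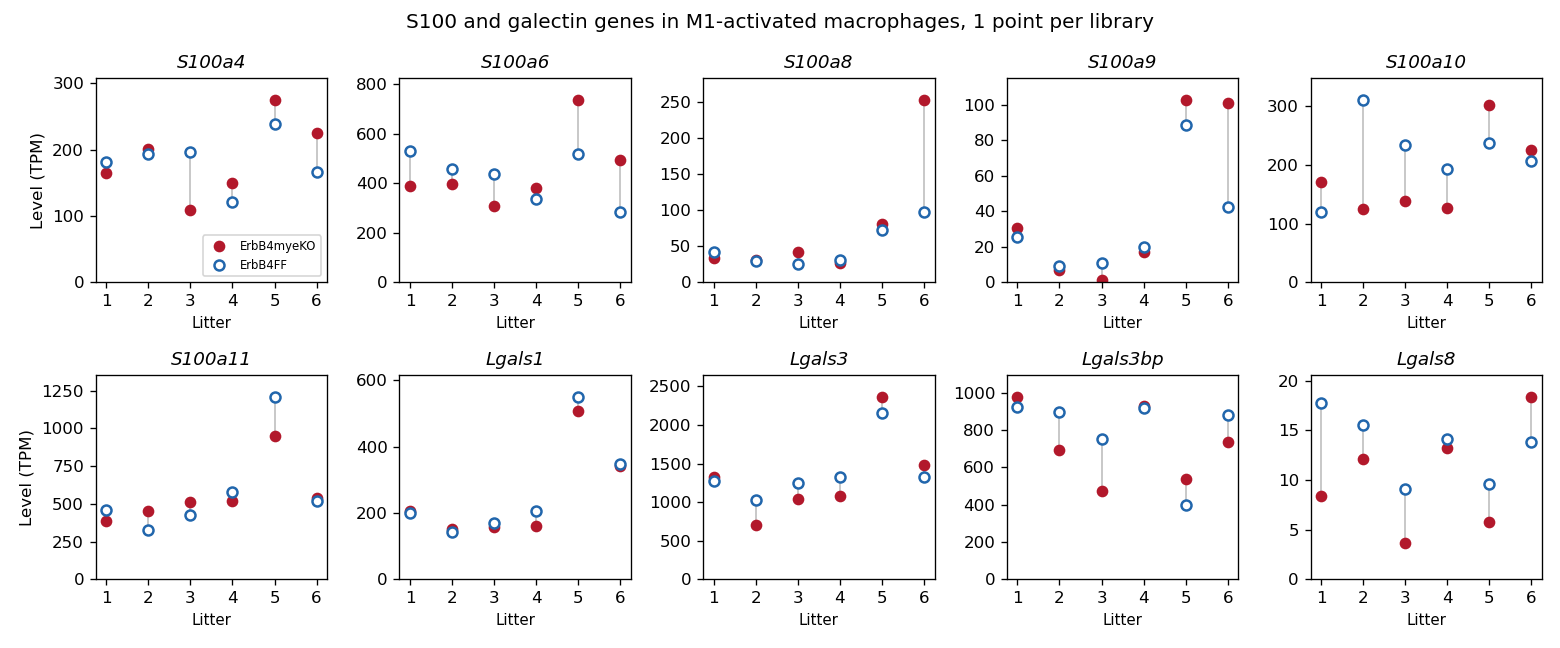
TPM of the 10 genes (y axis, linear from 0) by litter (x axis), with filled points for ErbB4myeKO, open points for ErbB4FF and a grey line joining littermates. Litter 5 holds the highest value of S100a4, S100a6, S100a9, S100a11, Lgals1 and Lgals3 and the lowest ErbB4FF value of Lgals3bp, and S100a8 reached 253 TPM in the ErbB4myeKO library of litter 6.

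Lgals8, a tandem-repeat galectin that marks damaged endosomes for autophagy, was the gene with the unadjusted p under 0.05. Its level ran from 3.64 through a median of 10.3 to 18.3 TPM in ErbB4myeKO and from 9.13 through 13.95 to 17.8 TPM in ErbB4FF libraries. ErbB4myeKO was the lower littermate in 5 of 6 litters and the higher one in litter 6, and the ranges overlapped. The log2 ratio was -0.50 (95% interval -0.99 to -0.0016, adjusted p = 0.603 by limma), a direction in which 4.38% of all genes had an unadjusted p under 0.05. Its unadjusted p was 0.0494 by limma and 0.125 by the exact permutation test of the 6 ratios. Between 6.97% and 7.24% of its 31-base words also lie in transcripts of other genes, Heatr1 among them, so its reads can be split between the genes.

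S100a8, the metal-binding partner of S100a9, ran from 27.4 through a median of 38.1 to 253 TPM in ErbB4myeKO and from 24.8 through 36.6 to 97.6 TPM in ErbB4FF libraries. The highest value of each genotype was in litter 6, and without litter 6 the log2 ratio was 0.09 in place of 0.30 (95% interval -0.20 to 0.81, adjusted p = 0.680 by limma). S100a8 was higher in ErbB4myeKO in 4 of 6 litters.

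S100a9 ran from 1.42 through a median of 24.0 to 103 TPM in ErbB4myeKO and from 8.90 through 22.7 to 89.0 TPM in ErbB4FF libraries. It was the most variable of the 10, with a 72.2-fold distance between its lowest and highest library, against 2.45-fold to 10.2-fold for the other genes. Without the ErbB4myeKO library of litter 3, its lowest, that distance was 14.7-fold, and the 10.2-fold of S100a8 was 3.94-fold without its highest library. The log2 ratio was -0.24 (95% interval -1.24 to 0.76, adjusted p = 0.877 by limma). Litter 3, with a ratio of -2.59, decided its sign: without that litter the ratio was 0.23.

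S100a10, which forms a tetramer with annexin A2 and assembles plasminogen receptors at the cell surface, ran from 124 through a median of 154 to 302 TPM in ErbB4myeKO and from 119 through 220 to 310 TPM in ErbB4FF libraries. Its log2 ratio was -0.28 (95% interval -0.85 to 0.29, adjusted p = 0.727 by limma), with 3 litters up and 3 down, and ran from -0.44 without litter 1 to -0.08 without litter 2. The ratio in litter 2, -1.32, was the lowest and that in litter 1, 0.52, the highest. 

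The other 3 S100 genes had mean ratios within 0.06 of 0 on the log2 scale. S100a4, a regulator of myosin and cell migration, was at 187 ± 58.7 TPM in ErbB4myeKO and 183 ± 38.7 TPM in ErbB4FF (SD, n = 6), with a log2 ratio of 0.00163 (95% interval -0.37 to 0.37). S100a6, or calcyclin, was at 450 ± 152 and 427 ± 97.8 TPM, with a ratio of 0.05 (-0.37 to 0.48). S100a11, which takes part in membrane repair with annexins, was at 558 ± 199 and 584 ± 317 TPM, with a ratio of 0.01 (-0.26 to 0.28). The intervals leave room for a fold between 0.773 and 1.39 for S100a6 and between 0.836 and 1.21 for S100a11. S100a4 shares 58.1% of its 31-base words with the overlapping gene Gm42674, and S100a11 shares 48.9% with pseudogenes such as Gm12854, so both levels are uncertain.

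The other 3 galectin-related genes had mean log2 ratios between -0.13 and -0.08. Lgals1, a secreted galectin that dampens T cell responses, was at 254 ± 143 TPM in ErbB4myeKO and 269 ± 154 TPM in ErbB4FF (SD, n = 6). Its log2 ratio of -0.08 had the narrowest interval of the 10 (-0.24 to 0.09), a fold between 0.848 and 1.06. Lgals3 was at 1330 ± 571 and 1393 ± 390 TPM, with a ratio of -0.13 (-0.37 to 0.12) and a fold between 0.771 and 1.09. Lgals3bp, a secreted glycoprotein that binds galectins, was at 725 ± 201 and 795 ± 205 TPM, with a ratio of -0.13 (-0.44 to 0.19). Leaving out 1 litter in turn, the ratio ran from -0.19 (without litter 6) to -0.04 (without litter 2) for Lgals3, from -0.24 (without litter 5) to -0.02 (without litter 3) for Lgals3bp and from -0.11 (without litter 2) to -0.02 (without litter 4) for Lgals1. The adjusted p by limma was 0.745 for Lgals1, 0.715 for Lgals3 and 0.780 for Lgals3bp.

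**Figure D2:**
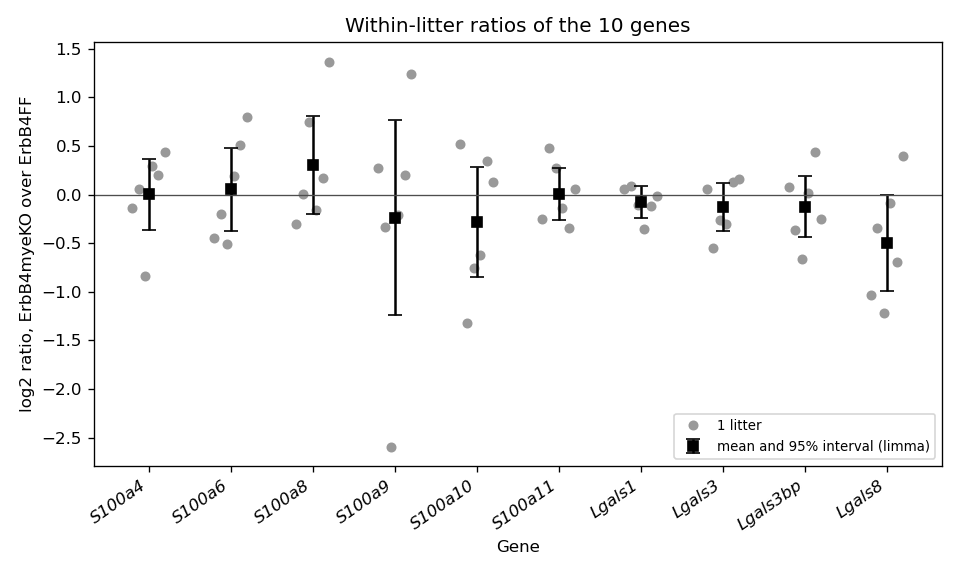
Log2 ratio of ErbB4myeKO over ErbB4FF (y axis) for each gene (x axis), with a grey point for each of 6 litters and a black square with bars for the limma mean and its 95% interval. The interval is narrowest for Lgals1 (-0.24 to 0.09) and widest for S100a9 (-1.24 to 0.76), and that of Lgals8 ends just under 0 (-0.0016).

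The split of S100a9 between its annotated transcripts differed between littermates in litters 1, 3 and 6 and was alike in litters 2, 4 and 5. All of its TPM in the ErbB4myeKO libraries of litters 1, 2 and 3 and in the ErbB4FF library of litter 2 lay on ENSMUST00000069960, the transcript with the 3 extra bases printed above. In the ErbB4FF libraries of litters 1, 3 and 5 all of it lay on ENSMUST00000117167. Littermates of litter 1 thus had 30.8 TPM on the former and 25.4 TPM on the latter, and those of litter 6 had 7.62 and 29.6 TPM on the former. The transcripts share 93.6% and 92.2% of their 31-base words with other transcripts, so the values per transcript can reflect how reads were assigned, and whether transcript use differed was not tested. The sum over both is used throughout, since the top transcript alone would move the log2 ratio of S100a9 from -0.24 to -1.22 (adjusted p = 0.741 by limma).

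**Figure D3:**
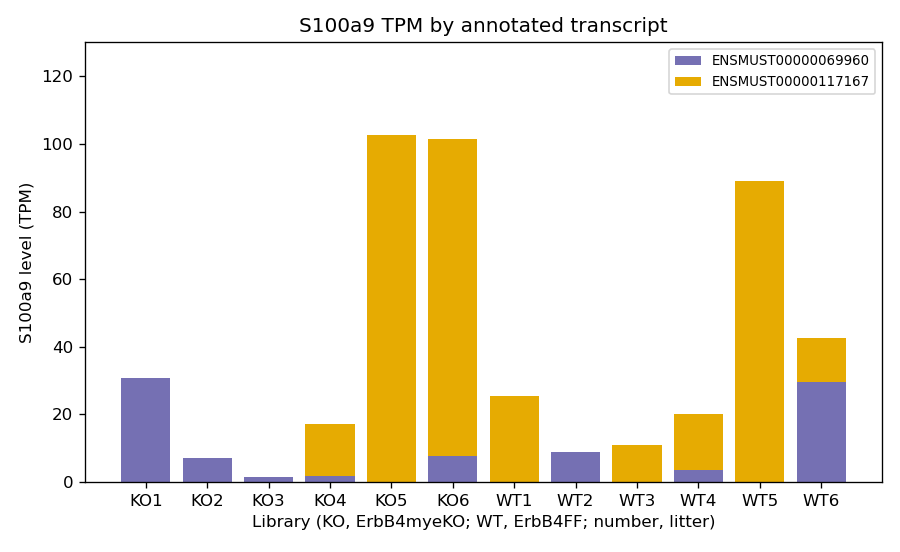
Stacked bars of S100a9 TPM (y axis, from 0) in each of the 12 libraries (x axis), coloured by annotated transcript. In litter 1 the whole bar changes from ENSMUST00000069960 in the ErbB4myeKO library (30.8 TPM) to ENSMUST00000117167 in the ErbB4FF library (25.4 TPM), between transcripts so alike that the assignment of reads to them is uncertain.

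The litter of origin was compared next. With no effect of either, litter would hold 45.5% of the variation on average and genotype 9.09%, since litter has 5 degrees of freedom of 11. Of the variation in log2 level over the 12 libraries, litter held 41.0% for S100a10 to 98.4% for Lgals1, with a median of 83.1% over the 10 genes and 78.1% over all genes tested, and genotype held between 0.000491% (S100a4) and 15.9% (Lgals8). By limma's moderated F test of litter, 6 of the 10 genes had an adjusted p under 0.05 (Lgals1, S100a11, S100a8, Lgals3, S100a9 and Lgals3bp), beside 44.9% of all genes, so such a share was common in these libraries. With a Y-linked covariate only Lgals8 of the 10 had an adjusted p under 0.05 (0.0435 by limma), beside 9.53% of all genes, and without litters 5 and 6 none had, beside 0.0114% of all genes. Littermates matched in Y-linked genes, so that covariate overlaps with the litter block. It cannot separate sex from litter, and fewer litter calls can follow from the overlap alone. Since litters differ in batch and in the sex shown by Y-linked genes, which of these the litter values follow was not tested.

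Lgals1 had the clearest litter pattern. It was at 507 and 549 TPM in the littermates of litter 5 and at 343 and 347 TPM in those of litter 6, and between 143 and 207 TPM in the 8 other libraries. Both litters thus stood above the rest without overlap, and littermates were close, with absolute log2 ratios from 0.01 in litter 6 to 0.36 in litter 4. The moderated F was 69.8 (adjusted p = 0.000377 by limma). By limma the adjusted p was 0.0197 without litter 5 and 0.267 without litters 5 and 6. With a Y-linked covariate, which overlaps with the litter block, it was 0.0886 by limma.

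S100a8 and S100a9 were both high in litters 5 and 6. S100a8 was 2.35-fold and S100a9 5.05-fold above the median of the other litters in litter 5, and they were 4.82-fold and 3.49-fold above it in litter 6. The adjusted p of litter by limma was 0.00729 for S100a8 and 0.0127 for S100a9, and without litter 5 it was 0.0383 and 0.0767. Over the 6 litters their within-litter ratios were not correlated (r = 0.0418, exact permutation p = 0.926, Spearman's rho = 0.0286, exact permutation p = 1.0, and r = -0.114 without litters 3 and 6). In litter 3 the ratios differed in sign (0.75 for S100a8 and -2.59 for S100a9), with S100a9 at 1.42 TPM in the ErbB4myeKO library. In litter 6 both were high (1.37 and 1.24), so r depends on which litter is left out.

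Of 16 neutrophil markers, 15 were in the table and 3 passed the filter of a mean of 1 TPM. Their summed level was 3.87 to 34.8 TPM in ErbB4myeKO and 5.05 to 27.2 TPM in ErbB4FF libraries, and 10 of them were below 1 TPM in every library, among them Ly6g, Mpo, Elane, Cxcr2 and, at 0 throughout, Retnlg. The granule genes Camp and Ngp were highest in litters 5 and 6, as S100a8 and S100a9 were. Camp ran from 4.42 to 10.5 TPM in those 4 libraries and from 0.650 to 2.39 TPM in the 8 others, and was higher in ErbB4myeKO in 6 of 6 litters (log2 ratio 0.45, exact permutation p = 0.0312, adjusted p = 0.603 by limma). Ngp ran from 7.52 to 18.4 TPM and from 0 to 5.33 TPM. Mmp8, the third marker tested, had its lowest values in litter 5, at 0.820 and 0.552 TPM against 1.00 to 3.84 TPM in the 10 other libraries, and its highest in the ErbB4myeKO library of litter 6, where S100a8 was also highest. Their part in the S100a8 and S100a9 values was not tested, and in bulk RNA more cells of a type cannot be told apart from more RNA per cell. The 7 stromal markers, led by the collagens Col1a1 and Col1a2, summed to 9.28 to 103 TPM in ErbB4myeKO and 15.9 to 97.9 TPM in ErbB4FF libraries, with the highest sum of each genotype in litter 1. Dcn, another of them, was instead highest in litter 5, at 10.2 and 9.60 TPM, with 5.83 and 6.11 TPM in litter 6 and 0 to 6.89 TPM in the other litters, and the part of stromal RNA in the values of the 10 genes was not tested.

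**Figure D4:**
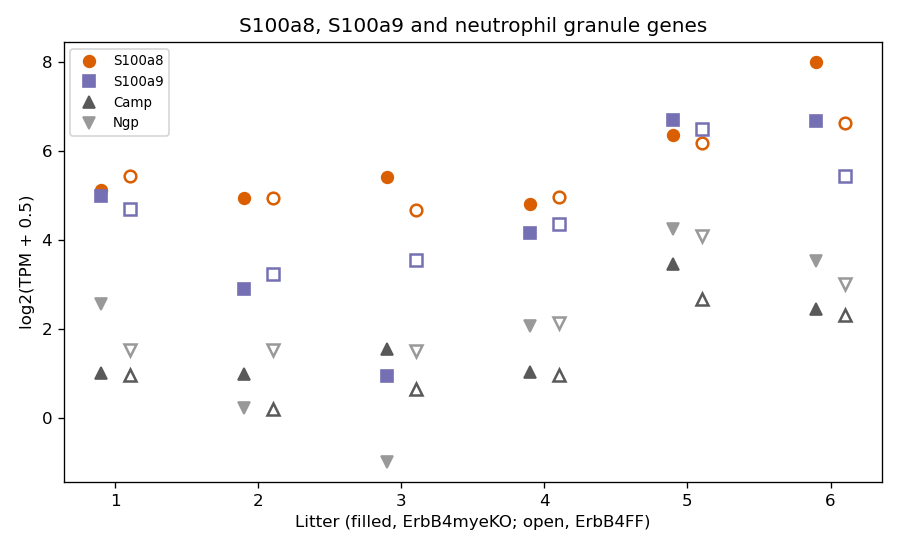
Log2(TPM + 0.5) of S100a8, S100a9, Camp and Ngp (y axis) by litter (x axis), with filled symbols for ErbB4myeKO and open symbols for ErbB4FF libraries. All 4 genes are highest in litters 5 and 6, and S100a9 and Ngp are lowest in the ErbB4myeKO library of litter 3 (1.42 and 0 TPM).

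Transcript length differed among the 10 genes, and litter 5 was where length classes stood apart. Lgals3 was 1.89-fold, S100a11 2.29-fold and Lgals1 2.90-fold above the median of the other litters in litter 5, and S100a4, S100a6 and S100a10 were 1.49-fold, 1.64-fold and 1.49-fold above it. Lgals3bp and Lgals8, whose transcripts are 2330 and 2736 bases long against 464 to 1072 for the other 8, were lower in litter 5, at 0.575 and 0.560 of that median. Both were also low in litter 3, at 0.743 and 0.446 of the median of the other litters there. Lgals3, Lgals3bp and Lgals8 belong to the class of 1000 to 4000 bases, whose median was 0.17 higher in litter 5 on the log2 scale, while the genes themselves were 0.92 higher, 0.80 lower and 0.84 lower on that scale. Without litter 5 the litter calls fell from 6 to 2 of the 10 genes, Lgals1 and S100a8, beside 11.1% of all genes, and the adjusted p of S100a11, Lgals3 and Lgals3bp became 0.229, 0.124 and 0.150 by limma.

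The libraries were therefore also rescaled so that the median gene with a short transcript, the 10 left out, was level in each. The litter calls by limma were then Lgals1, Lgals3bp, Lgals8, S100a8 and S100a9, beside 57.7% of all genes. Lgals3bp and Lgals8 are longer than the class used for the scaling and were already low in litter 5, so the scaling itself sets them further apart and their calls add nothing. The adjusted p of S100a11 and Lgals3 rose to 0.169 and 0.376, and that of Lgals1 was 0.00255. At 1072 bases Lgals3 lies just outside the class used for the scaling, so the scaling does not set it against genes of its own length.

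**Figure D5:**
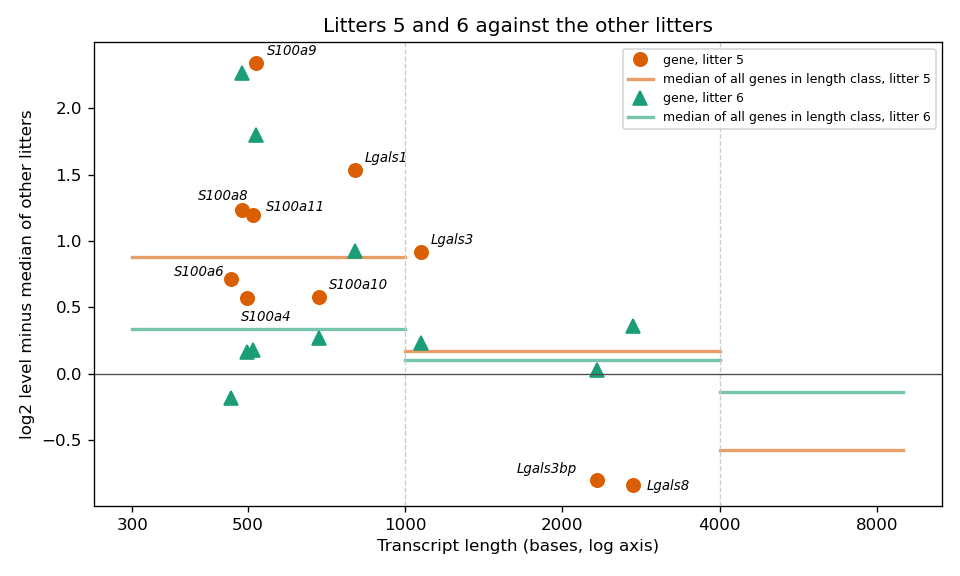
Log2 level of each gene in litters 5 (circles, named) and 6 (triangles) minus the median of the other litters (y axis) against transcript length in bases (x axis, log scale), with lines for the median of all other genes in each length class. In litter 5 the genes under 1000 bases lie above 0, from 0.57 (S100a4) to 2.34 (S100a9) with a class median of 0.88, and Lgals3bp and Lgals8 lie below 0, under their class median of 0.17.

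Lgals3 was the most abundant of the 10 in ErbB4FF libraries, where its median of 1301 TPM was above 99.3% of the genes tested. It was followed by Lgals3bp (888 TPM), S100a11 (487), S100a6 (447), S100a10 (220), Lgals1 (202), S100a4 (187), S100a8 (36.6), S100a9 (22.7) and Lgals8 (13.95), the last above 60.3% of genes. The steps from Lgals3 to Lgals3bp, from S100a6 to S100a10 and from S100a4 to S100a8 held in 6 of 6 libraries (exact permutation p = 0.0312 each, the smallest that 6 libraries allow, and adjusted p = 0.0938 over 9 neighbouring pairs). The other 6 neighbours, at adjusted p = 0.141 to 0.562 by that test, held their order in 2 to 5 of 6 libraries. For S100a8 over S100a9 the mean log2 difference of 0.84 exceeded its SD of 0.68. The order was drawn from the same 6 libraries, so these p-values describe it and are no independent test of it. The 10 genes together made up 2767 to 5853 TPM, or 0.277% to 0.585% of a library.

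Among other members of the families, 3 of 11 S100 genes and 1 of 6 galectin genes in the table passed the filter. S100a1, a regulator of calcium handling, was at 105 ± 49.6 TPM in ErbB4myeKO and 101 ± 40.2 TPM in ErbB4FF (SD, n = 6), and S100a13 at 41.4 ± 12.6 and 46.9 ± 16.8 TPM. S100a16 was at 2.62 ± 2.40 and 1.27 ± 0.772 TPM, and Lgals9, a tandem-repeat galectin, was at 13.7 ± 6.16 and 16.0 ± 4.25 TPM. None of the 4 had an adjusted p under 0.05 by limma or an unadjusted p under 0.05. S100a2, S100a5 and S100z were at 0 in all 12 libraries.

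Known partners and receptors of the S100 proteins and galectins were read from a list of 23 genes, of which 20 were tested. Of these, 9 had a ratio above 0 and 11 below, 1 had an unadjusted p under 0.05 and none an adjusted p under 0.05 by limma (median log2 ratio -0.04), and 1 of 20 is no more than the 8.21% of all genes at an unadjusted p under 0.05. Anxa2, the partner of S100a10, was that gene, at 367 ± 115 TPM in ErbB4myeKO and 445 ± 103 TPM in ErbB4FF (SD, n = 6). It was lower in 6 of 6 litters, as 4.82% of all genes kept one sign, with a log2 ratio of -0.31 (p = 0.00787 by limma and 0.0312 by exact permutation, adjusted p = 0.603 by limma). Anxa6 (-0.62) and Ahnak (-0.52) had the lowest log2 ratios of the 20 tested, and Havcr2, a receptor of Lgals9 (0.54), and Cd44 (0.18) the highest. Trim16, which works with Lgals3 at damaged endosomes, was below the filter at 0.527 ± 0.443 and 0.0933 ± 0.147 TPM (SD, n = 6) and was higher in ErbB4myeKO in 5 of 6 litters (log2 ratio 0.71, exact permutation p = 0.0938). Ager, the receptor RAGE, was at 0 in all libraries, while Tlr4, the other receptor of S100a8 and S100a9, was at 15.4 ± 4.53 and 17.1 ± 6.97 TPM.

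The within-litter ratios of the 10 genes were compared in 45 pairs, and S100a10 was also compared with Anxa2. None of the 46 relations had an adjusted p under 0.05 (smallest 0.301), and 7 had an unadjusted exact permutation p under 0.05. The share over pairs of all genes was not computed, and the 46 relations share genes and litters. The 7 are therefore given as a description and not as particular to these genes. S100a10 went with Lgals3 (r = 0.957, exact permutation p = 0.0167, rho = 0.714, exact permutation p = 0.136, r = 0.963 without litters 1 and 2) and with Anxa2 (r = 0.863, exact permutation p = 0.0444, rho = 0.771, exact permutation p = 0.103, r = 0.857 without litters 1 and 2). S100a11 went against Lgals3bp (r = -0.872, exact permutation p = 0.0236, rho = -0.943, exact permutation p = 0.0167, r = -0.945 without litters 2 and 3). The relation of S100a4 with S100a9 (r = 0.902, exact permutation p = 0.0347, rho = 0.60, exact permutation p = 0.242) rested on litters 3 and 6 and was -0.420 without them. The other 3 were S100a4 with S100a6 and with Lgals8, and S100a10 against S100a11.

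The genes most like each of the 10 were found by Pearson's r over the 12 libraries after the mean of each litter had been taken away, which leaves 6 independent differences, so that values near 1 arise among 8780 genes and are given as a description. Lgals3 was closest to Ubtd2 (r = 0.985), Tmem268 and Axl, a receptor for apoptotic cells (r = 0.983). S100a10 was closest to Tbc1d9b (r = 0.991), Tmem268 and Gpr33. S100a8 was closest to Ms4a6d (r = 0.958), S100a9 to Aldh3b1 (r = 0.996), S100a4 to Rev1 (r = 0.992), S100a6 to Rapgef6 (r = 0.982) and S100a11 to Manf (r = 0.986), a protein of the stressed endoplasmic reticulum. Lgals1 was closest to Trappc6b (r = 0.956), Lgals3bp to Dnajc7 (r = 0.989) and Lgals8 to Dhx32 (r = 0.971).

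With litter differences left in, a comparison added after the values were seen, other genes came first. Lgals3bp was closest to Oas3, an antiviral enzyme induced by interferon (r = 0.978), Lgals1 to the ribosomal protein gene Rpl3 (r = 0.979) and S100a11 to Ndufa1, a subunit of mitochondrial complex I (r = 0.960), over 12 libraries that share litter, batch and the length pattern of litter 5. S100a9 was closest to Spats2 (r = 0.973) and then Ngp (r = 0.969), and S100a8 to the immunoglobulin segment Ighv11-2 (r = 0.953) and then Stambpl1 (r = 0.924).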

How the data were processed

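RNA was sequenced from 12 libraries, 6 ErbB4myeKO and 6 ErbB4FF, grouped by the labels and paired by litter number, which the labels state. The authors pseudoaligned reads with kallisto (mm10, version not given in the sources used here) and deposited TPM values for transcripts marked as principal, which hold 59.0% to 74.7% of the TPM of a library. The table also holds the authors' own test columns, p-value and q-value of sleuth and its mean, which were not used. The table holds no read counts, so the depth behind each value is unknown and precision rests on the spread between libraries. Repeated lines (405 of 29213) were dropped, and each gene took the sum of its transcripts. Genes averaging 1 TPM or more (8780) entered a fit of log2(TPM + 0.5) by limma 3.58.1 in R 4.3.3 (litter block, eBayes with trend, Benjamini-Hochberg over all genes). Exact two-sided permutation tests of single values ran through the 64 swaps within litters (smallest p 0.0312) or the 720 pairings of 6 ratios. Littermates deviated together (r = 0.273 to 0.774 in the 6 litters).

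Positions and shared 31-base words came from GENCODE M21 (GRCm38), and promoter windows from RefSeq (GRCm38.p6). The members, lists and the rule for named genes were chosen with earlier results of these data known. That rule takes the 10 genes, Erbb4, Lyz2, other S100 and galectin genes, partners with the 2 highest and 2 lowest ratios or an unadjusted p under 0.05, and the 3 genes most like each member. Genes named outside it were chosen after their values were seen. They include Ager, Tlr4, Trim16, the single cell type markers and the genes most alike with litter differences left in. The F test of litter, the short-transcript scaling and the fit without litters 5 and 6 were added after the values were seen. On data simulated for the genotype comparison (8780 genes, 200 changed), limma recovered 64% of changes of 1 and 91% of changes of 2 on the log2 scale, with 10 false among 165 calls. Noise was drawn independently for each gene and library there, which real libraries need not follow. The rates are over all changed genes and do not give the recovery for any of the 10 members. Other steps ran in Python 3.11.15 (matplotlib 3.10.9, scipy 1.17.1, pandas 2.3.3, numpy 2.4.6).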

Additional observations from a re-analysis of the deposited data

Results flagged for a closer look

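In 30 groups of 6 values tested for a single distant value by Dixon's test, 5 had one. All 5 were groups of TPM in the 6 libraries of a genotype. Chance flags about 1 in 20 independent groups, but these groups share libraries and are not independent. S100a8 was at 253 TPM in the ErbB4myeKO library of litter 6, and the next ErbB4myeKO library was at 81.0 TPM. S100a11 was at 947 TPM in the ErbB4myeKO library of litter 5 and at 1206 TPM in its ErbB4FF littermate, above the next values of 538 and 575 TPM. Lgals3 was at 2156 TPM in the ErbB4FF library of litter 5 (next 1328 TPM), and Lgals3bp was lowest in that library, at 398 TPM (next 753 TPM). Of the 5 values, 4 lie in litter 5.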

How the results depend on the processing

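Calls by genotype stayed at 0 under every alternative except without litter 3, where 1 gene (Igkv1-88, adjusted p = 0.0486 by limma) passed (0 to 1 leaving out a litter in turn). Genes at an unadjusted p under 0.05 fell from 721 to 75 without the replicate block and ran from 410 to 860 without 1 litter. The single member at an unadjusted p under 0.05, Lgals8, was lost (0 members) without the replicate block, with a pseudocount of 0.1, with no filter, scaled to the table total, with eBayes without trend, with the top transcript alone and scaled on short transcripts, and the count was 0 to 1 without 1 litter. Litter calls fell from 3938 to 837 with a Y-linked covariate and to 1 without litters 5 and 6 (976 to 4076 without 1 litter), and members among them from 6 to 1 and 0 (2 to 7 without 1 litter). The covariate overlaps with the litter block, so fewer litter calls with it can follow from that overlap. Of 180 alternatives for the member ratios, 164 kept the direction and 16, in 4 members, turned it, with no adjusted p under 0.05 on either side. S100a4 turned to -0.10 with a Y-linked covariate, -0.0083 with median ratio scaling and -0.16 without litters 5 and 6 (-0.085 to 0.17 without 1 litter). Littermates matched in sex, so within litters that covariate follows only differences in Y-linked TPM and does not adjust the ratios for sex. S100a6 turned to -0.082 with that covariate and -0.24 without both litters (-0.094 to 0.17 without 1 litter). S100a11 turned to -0.00053 with median ratio scaling (-0.084 to 0.081 without 1 litter), and S100a9 ran from -0.53 to 0.23 without 1 litter and was -0.51 with a Y-linked covariate. Without litters 5 and 6 the ratio was -0.72 for S100a9, -0.54 for S100a10, -0.26 for Lgals3, -0.24 for Lgals3bp and 0.07 for S100a8. The causes were not tested.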
